A study of Mus musculus with 9 samples.

Results

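The genes described here are 43 components of the BMP and TGF-beta pathway. They are listed by symbol and read on mouse expression arrays from osteosarcoma lines, osteoblasts and pre-osteoblasts. All 43 were measured, among 19938 genes in all. Each gene was read from a probe set that names it alone, and Smurf2, the single member with more than 1 such probe set, from the one with the highest mean over the 9 arrays. By role the members were 11 ligands, 10 receptors, 6 receptor-regulated and common Smads, 6 intracellular inhibitors, 6 antagonists and a decoy receptor, and 4 matrix proteins and a protease, with the decoy counted among the antagonists and the protease among the matrix proteins. The osteosarcoma group was 3 cell lines, each with 1 array, from adult C57BL/6 mice of genotype Osx-Cre p53fl/fl Rbfl/fl. Cre is made there under the Osx promoter, which is active in the osteoblast lineage, and the labels describe the lines as fibroblastic and p53-/- Rb-/-. Lines 1 and 3 came from females and line 2 from a male, and all were used subconfluent and below passage 8. The osteoblast group was 3 cultures of Kusa4b10, a mouse bone marrow stromal line, held for 21 days in medium with ascorbate. The pre-osteoblast group was 3 undifferentiated Kusa4b10 cultures. The age and strain behind Kusa4b10 are not described here. The Kusa4b10 cultures are labelled as independent samples of that 1 line, so the spread between them is that between cultures of 1 line. The fit used 1 spread per gene for all groups. The p-values between osteoblasts and pre-osteoblasts therefore also depend on the spread between the osteosarcoma lines. With the lines left out of the fit, that comparison called 20 members in place of 14. In the osteosarcoma comparisons tumour state, line of origin and culture history cannot be told apart, and neither can differentiation, medium and time in culture between osteoblasts and pre-osteoblasts.

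BMPs and TGF-betas are secreted dimers that bring together type I and type II serine/threonine kinase receptors on the cell surface. The type I receptors phosphorylate receptor-regulated Smads (Smad1, Smad5 and Smad9 on the BMP side, Smad2 and Smad3 on the TGF-beta side), which join Smad4 and bind DNA. Inhibitory Smads, ubiquitin ligases and secreted antagonists hold the signal down, several of them as target genes of the pathway itself, and TGF-beta is stored in the matrix in a latent complex. In bone, BMPs drive mesenchymal cells toward osteoblasts, and TGF-beta released from the matrix acts on osteoblast precursors.

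Values are log2 levels, and each difference between groups is in log2 units, with its standard error from the fit after ±, and a p-value adjusted over all 19938 genes (limma, Benjamini-Hochberg), with a call at an adjusted p below 0.05. Precision is limited by having 3 arrays in each group. Since these are bulk RNA values, fewer cells of a type and less RNA per cell cannot be told apart. Correlations across genes were 0.982 to 0.987 between the osteosarcoma lines, 0.994 to 0.998 between osteoblast cultures and 0.994 to 0.997 between pre-osteoblast cultures, against 0.950 to 0.970 between groups. Rb1, a deleted gene of the tumour model, was at 9.26, 9.67 and 9.85 in lines 1 to 3, at 10.65, 10.63 and 10.64 in osteoblasts and at 9.28, 9.28 and 9.17 in pre-osteoblasts. The place of its probes relative to the deletion was not used, so these levels do not check the labels. Of 7 osteoblast markers, 6 were higher in osteoblasts than in the pre-osteoblast cultures, and of 7 adipocyte markers 5 were. All 5 markers of dividing cells were lower in osteoblasts than in the pre-osteoblast cultures and higher in osteosarcoma than in the osteoblast cultures. The summed log2 level of the adipocyte markers ran from 54.0 to 58.4 in osteosarcoma, from 79.7 to 85.4 in osteoblasts and from 58.9 to 63.2 in pre-osteoblasts. For the dividing-cell markers it ran from 56.8 to 58.9 in osteosarcoma, from 41.9 to 48.3 in osteoblasts and from 54.6 to 58.7 in pre-osteoblasts, and for the osteoblast markers from 59.2 to 64.0, from 80.2 to 85.3 and from 56.7 to 60.6 in the same groups. These markers move with every comparison that holds osteoblasts, and their part in the results was not tested. Osteoblast culture 2 stood apart from the other osteoblast cultures, with a mean of 9.66 over the dividing-cell markers against 8.57 and 8.39. Of 5 macrophage and 4 endothelial markers 0 were called in any comparison. The macrophage markers summed to 32.6 to 33.3 over all groups, and the endothelial ones to 25.6 to 28.4 in osteosarcoma, 25.6 in every osteoblast culture and 25.4 in every pre-osteoblast culture. Of 4 chondrocyte markers, 1 was higher in osteosarcoma than in the pre-osteoblast cultures (Sox9) and 0 were called in the other comparisons, and the Sox9 call was lost without line 1 or 3 or any 1 pre-osteoblast culture (adjusted p 0.0614 to 0.0930).

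Between osteoblasts and pre-osteoblasts, 14 of the 43 members were called, 11 higher and 3 lower in osteoblasts, where 26.1% of all genes were called (10.3% higher and 15.8% lower). Between osteosarcoma and pre-osteoblasts, 19 members were called, 17 higher and 2 lower, where 23.5% of all genes were called (9.96% higher and 13.5% lower). Between osteosarcoma and osteoblasts, 18 members were called, 10 higher and 8 lower, where 27.4% of all genes were called (14.7% higher and 12.7% lower). In percent these member counts are 32.6%, 44.2% and 41.9%. The members and all genes were not matched for level, here or for the lists below. Of the 43 members, 8 had a mean below the median level of all genes in every group. No list was tested as a set. The median difference over the members was 0.17, 0.20 and 0.05 in these comparisons, and over all genes it was -0.0037, -0.0159 and -0.018. The comparisons share arrays, so calls in different ones are not independent of each other. A moderated F test over the 3 groups called 25 members, where it called 38.4% of all genes. In all, 28 members were called in at least 1 comparison and 15 in none, and Tgfb1, Tgfbr1 and Tgfbr2 were called in all 3. Without osteoblast culture 2 the counts were 12 higher and 2 lower, 17 higher and 2 lower, and 11 higher and 7 lower. The lower count between osteoblasts and pre-osteoblasts was 2 without osteoblast culture 1 or 2 or pre-osteoblast culture 1 or 2, and it was 5 when osteosarcoma was left out of the fit. Of the 43 members, 3 were called with at least 1 log2 between osteoblasts and pre-osteoblasts, near the share of all genes (6.23%). Such calls numbered 8 for osteosarcoma against pre-osteoblasts (4.58% of all genes) and 5 for osteosarcoma against osteoblasts (6.94%). All osteoblast arrays lay above all pre-osteoblast arrays for 18 members and below them for 7 (19.1% and 25.1% of all genes, 44.2% in all). All osteosarcoma arrays lay above all pre-osteoblast arrays for 20 and below them for 4 (15.4% and 20.2%, 35.6% in all), and above all osteoblast arrays for 12 and below them for 10 (19.6% and 19.1%, 38.7% in all). The map of all members by array shows each value relative to the pre-osteoblast mean.

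**Figure D1:**
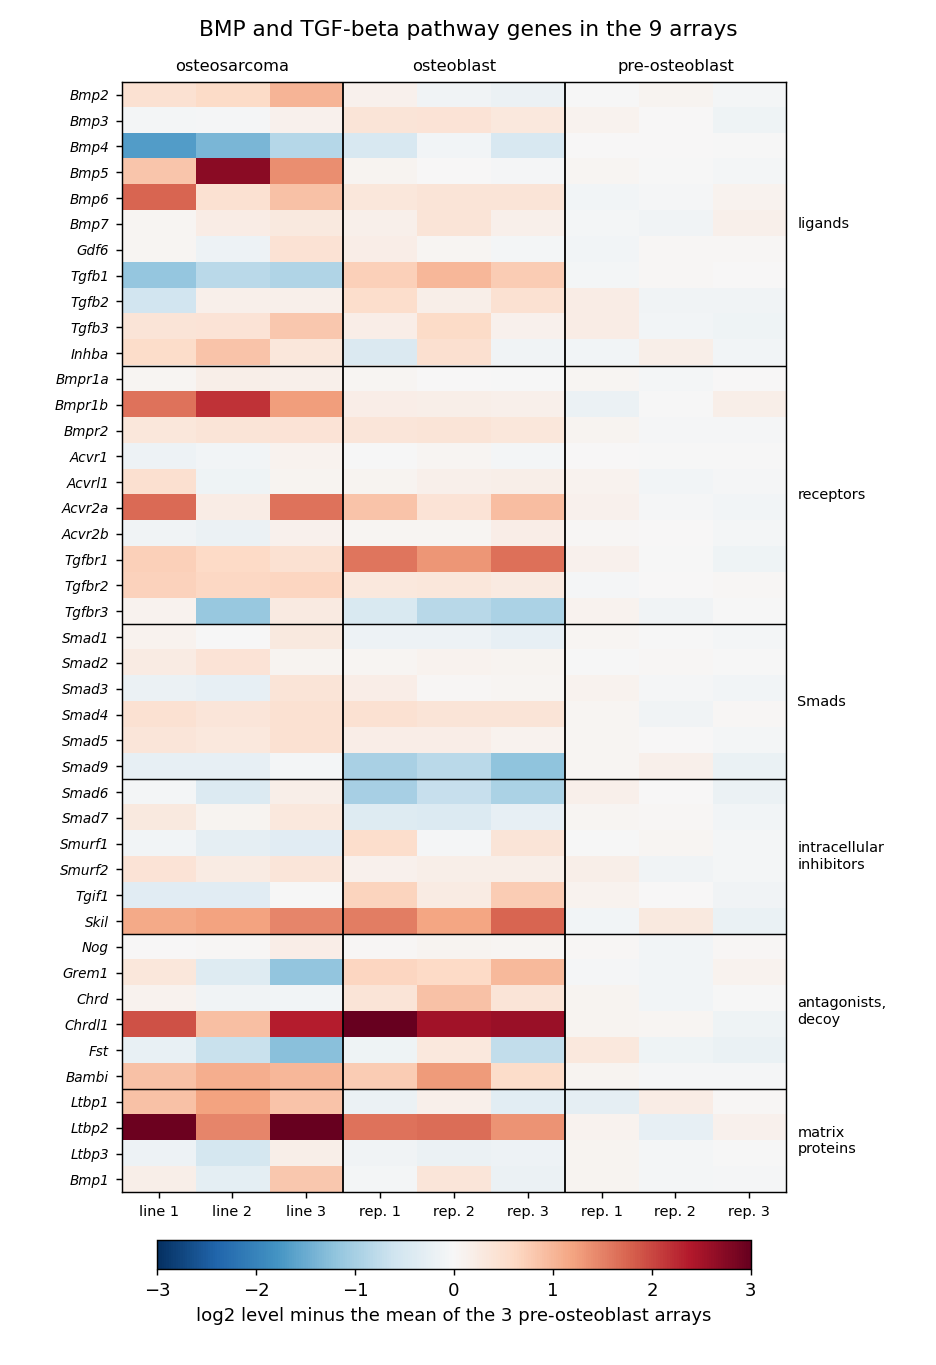
Log2 level of the 43 members (rows, ordered by role) in each array (columns) minus the mean of the 3 pre-osteoblast arrays, on a colour scale that ends at -3 and 3, so that larger differences take the end colour. By group mean, Chrdl1 and Ltbp2 lie farthest from pre-osteoblasts in osteosarcoma and in osteoblasts. Bmpr1b and Bmp5 are close to Chrdl1 in osteosarcoma, and Tgfbr1 and Skil are close to Ltbp2 in osteoblasts. In osteosarcoma line 2, Bmp5 and Bmpr1b are darker than Chrdl1 and Ltbp2. Bmp4 is below its pre-osteoblast mean in all osteosarcoma lines, and Smad9 and Smad6 are below theirs in all osteoblast cultures.

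The ligands split most clearly by group at Tgfb1 and Bmp4. Tgfb1, the main TGF-beta ligand of bone matrix, was lowest in osteosarcoma and highest in osteoblasts. Bmp4 was lower in osteosarcoma than in either Kusa4b10 group, and Bmp2, Bmp5 and Bmp6 were higher in osteosarcoma than in the pre-osteoblast cultures. Of the 11 ligands, 2 rose and 0 fell in osteoblasts against pre-osteoblasts, 4 rose and 2 fell in osteosarcoma against pre-osteoblasts, and 2 rose and 3 fell in osteosarcoma against osteoblasts. In percent 18.2%, 54.5% and 45.5% of the ligands were called, against the 26.1%, 23.5% and 27.4% of all genes given above, so the first share was below the background.

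Tgfb1 was at 9.64, 9.98 and 9.89 in osteosarcoma lines 1, 2 and 3, at 11.51, 11.80 and 11.54 in the osteoblast cultures and at 10.74, 10.84 and 10.80 in the pre-osteoblast cultures. None of the groups overlapped, and the pre-osteoblasts lay between the others. Tgfb1 was 3.44-fold lower in osteosarcoma than in the osteoblast cultures (-1.78 ± 0.11, adjusted p = 3.88e-05) and 1.94-fold lower than in the pre-osteoblast cultures (-0.96 ± 0.11, adjusted p = 5.82e-04). It was 1.77-fold above the pre-osteoblast level in osteoblasts (0.82 ± 0.11, adjusted p = 9.78e-04). Tgfb2 had the same signs as Tgfb1 but gave no call. Its difference was -0.47 ± 0.20 between osteosarcoma and osteoblasts (adjusted p = 0.132), where the groups did not overlap. Against pre-osteoblasts it was -0.08 ± 0.20 in osteosarcoma (adjusted p = 0.832) and 0.39 ± 0.20 in osteoblasts (adjusted p = 0.221). The osteoblast difference passed with a replicate block in a fit of the Kusa4b10 cultures alone (0.0200). Tgfb3 was higher in osteosarcoma than in the pre-osteoblast cultures by 0.53 ± 0.16 (adjusted p = 0.0481). That Tgfb3 call was lost without any 1 osteosarcoma line, without osteoblast culture 1 or 3 and without pre-osteoblast culture 2 or 3 (adjusted p 0.0538 to 0.148). It was also lost when the third group was left out of the fit (0.0678) and under 1 array weight per group (0.0739).

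Bmp4, a BMP made by osteogenic and stromal cells, was at 10.93, 11.23 and 11.76 in osteosarcoma lines 1, 2 and 3, at 12.12, 12.54 and 12.13 in osteoblasts and at 12.62, 12.62 and 12.59 in pre-osteoblasts. Every osteosarcoma line lay below every Kusa4b10 culture. The difference was -1.30 ± 0.20 from pre-osteoblasts (adjusted p = 0.00249, 2.47-fold lower) and -0.95 ± 0.20 from osteoblasts (adjusted p = 0.00836, 1.94-fold lower). Osteoblasts also lay below pre-osteoblasts in every culture, but at -0.35 ± 0.20 this did not pass the test (adjusted p = 0.264).

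Bmp5, a BMP with a role in skeletal development, was at 7.39, 9.26 and 7.96 in osteosarcoma lines 1, 2 and 3, at 6.64, 6.57 and 6.53 in osteoblasts and at 6.63, 6.55 and 6.51 in pre-osteoblasts. The Kusa4b10 cultures stayed within a narrow band, and the lines were all above it and far apart from each other, with line 2 the highest. Bmp5 was 3.12-fold above the pre-osteoblast level in osteosarcoma (1.64 ± 0.39, adjusted p = 0.0177) and 3.08-fold higher than in the osteoblast cultures (1.62 ± 0.39, adjusted p = 0.0155). The Kusa4b10 levels were near the lower quartile of all genes (6.44), so these folds may be too small. The first of these calls was lost without pre-osteoblast culture 1, 2 or 3 (adjusted p = 0.0508, 0.0523 and 0.0583) and the second without osteoblast culture 3 (0.0530), and both were lost when the third group was left out of the fit (0.0615 and 0.0550). Bmp6, another BMP with osteogenic activity, was at 9.15, 7.86 and 8.28 in lines 1, 2 and 3, at 7.73, 7.78 and 7.78 in osteoblasts and at 7.32, 7.38 and 7.52 in pre-osteoblasts. Line 1 was the highest, and line 2 lay only just above the osteoblasts. Bmp6 was higher in osteosarcoma than in the pre-osteoblast cultures by 1.03 ± 0.27 (adjusted p = 0.0276), and by 0.67 without line 1 (adjusted p = 0.00993). The call was lost without pre-osteoblast culture 1, 2 or 3 (0.0852, 0.0759 and 0.0638) and when the third group was left out of the fit (0.0834). Between osteoblasts and pre-osteoblasts Bmp6 was at 0.36 ± 0.27 (adjusted p = 0.405) and passed when osteosarcoma was left out of the fit (0.00712).

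Bmp2, a classical inducer of osteoblast differentiation, was at 6.10, 6.22 and 6.66 in osteosarcoma lines 1, 2 and 3, at 5.77, 5.53 and 5.45 in osteoblasts and at 5.61, 5.71 and 5.58 in pre-osteoblasts. It was higher in osteosarcoma by 0.74 ± 0.14 against osteoblasts (adjusted p = 0.00599) and by 0.69 ± 0.14 against pre-osteoblasts (adjusted p = 0.0103). Bmp3, a BMP that opposes the osteogenic ones, rose in osteoblasts, by 0.37 ± 0.08 against pre-osteoblasts (adjusted p = 0.0103), and was lower in osteosarcoma than in the osteoblast cultures (-0.36 ± 0.08, adjusted p = 0.0114). Bmp7, Gdf6, Tgfb2 and Inhba, the activin A subunit gene, were called in no comparison. Inhba was 0.61 ± 0.23 higher in osteosarcoma than in the osteoblast cultures (adjusted p = 0.0841) and passed without osteoblast culture 2 (0.0104), but was 0.40 without osteoblast culture 1 (0.247). Against pre-osteoblasts it was at 0.58 ± 0.23 (adjusted p = 0.106), and passed without osteoblast culture 2 (0.0325) and when osteoblasts were left out of the fit (0.0460). The number of ligands higher in osteosarcoma than in the pre-osteoblast cultures was 2 without pre-osteoblast culture 1 and 1 without pre-osteoblast culture 2 or 3. The number higher in osteosarcoma than in the osteoblast cultures was 1 without osteoblast culture 3. Bmp2, Bmp3, Bmp7 and Gdf6, with Bmpr1b, Acvrl1, Acvr2b and Nog, are the 8 members whose mean was below the median level of all genes, 7.97, in every group, and so are read from dim probe sets.

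**Figure D2:**
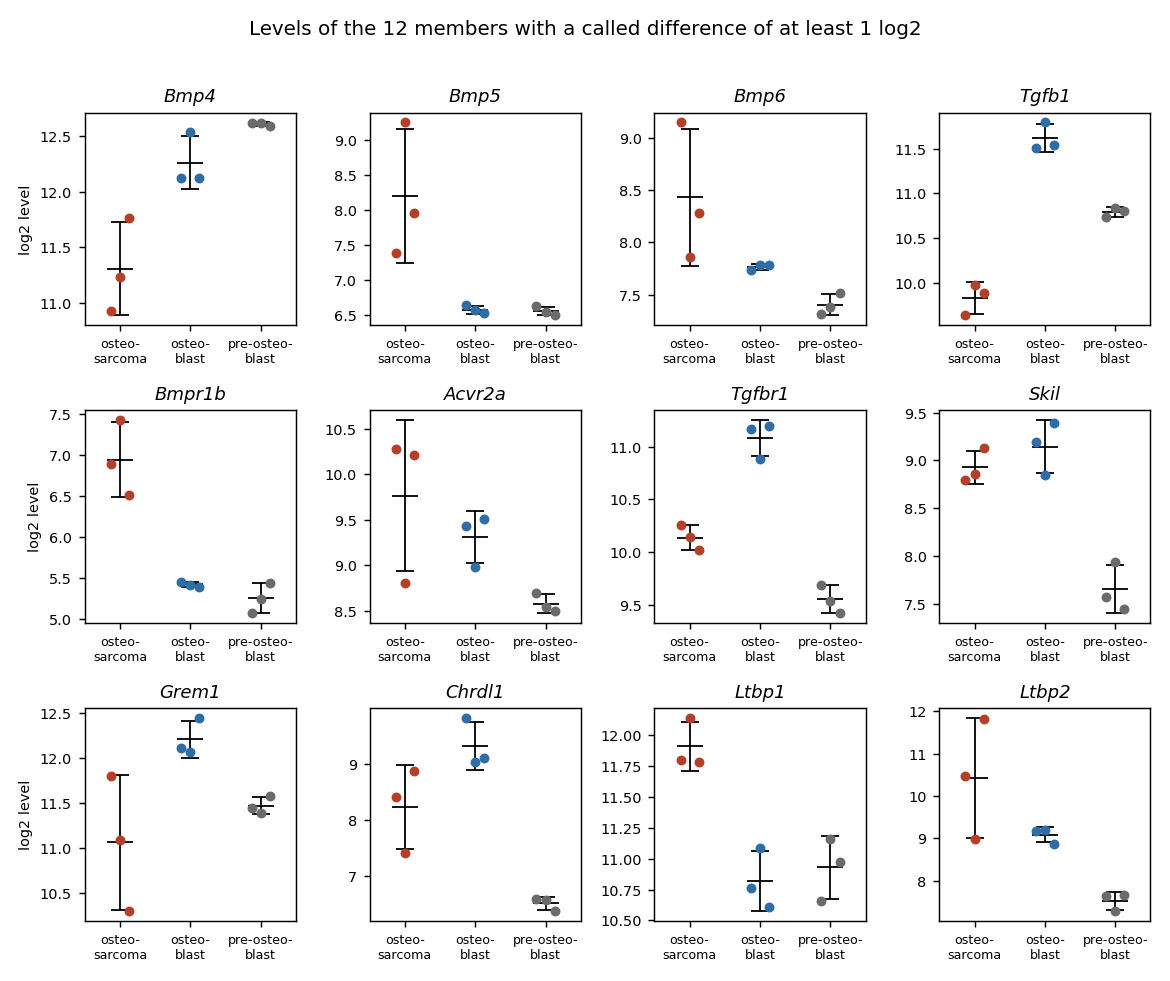
Log2 level of the 12 members with a called difference of at least 1 log2 between groups that do not overlap, with 1 point per array, the mean as a wide tick and the SD (n = 3) as the bar, and a separate axis for each gene. Tgfb1 and Tgfbr1 separate all groups, Bmp4 is lowest in osteosarcoma, and the osteosarcoma lines spread widely for Bmp5, Acvr2a, Grem1 and Ltbp2.

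Among the receptors, Tgfbr1, Tgfbr2 and Bmpr2 rose in osteoblasts and in osteosarcoma against pre-osteoblasts, and Bmpr1b and Acvr2a rose in osteosarcoma against pre-osteoblasts. Of the 10 receptors, 3 rose and 0 fell in osteoblasts against pre-osteoblasts, 5 rose and 0 fell in osteosarcoma against pre-osteoblasts, and 2 rose and 1 fell in osteosarcoma against osteoblasts. In percent 30%, 50% and 30% of the receptors were called, against the 26.1%, 23.5% and 27.4% of all genes given above, so the first and the last share were near the background.

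Tgfbr1, the type I receptor that phosphorylates Smad2 and Smad3, was at 10.26, 10.14 and 10.02 in osteosarcoma lines 1, 2 and 3, at 11.16, 10.88 and 11.19 in osteoblasts and at 9.69, 9.54 and 9.43 in pre-osteoblasts. The groups did not overlap. Tgfbr1 was 2.89-fold above the pre-osteoblast level in osteoblasts (1.53 ± 0.11, adjusted p = 6.22e-05), 1.92-fold lower in osteosarcoma than in the osteoblast cultures (-0.94 ± 0.11, adjusted p = 5.21e-04) and above the pre-osteoblast level in osteosarcoma (0.59 ± 0.11, adjusted p = 0.00579). Its partner Tgfbr2, the type II receptor that binds TGF-beta, had another order. It was at 11.74, 11.68 and 11.69 in osteosarcoma, at 11.37, 11.38 and 11.31 in osteoblasts and at 11.01, 11.05 and 11.08 in pre-osteoblasts, again with no overlap. Osteosarcoma was the highest group, by 0.35 ± 0.05 over osteoblasts (adjusted p = 0.00138) and 0.65 ± 0.05 over pre-osteoblasts (adjusted p = 1.12e-04), and osteoblasts exceeded pre-osteoblasts by 0.31 ± 0.05 (adjusted p = 0.00242). Tgfbr1 and Tgfb1 were thus both highest in osteoblasts, while the lowest group was pre-osteoblasts for the receptor and osteosarcoma for the ligand.

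Promoter windows from RefSeq on build GRCm38.p6, each 250 bases before to 50 after an annotated start, were found for 27 of the 43 members, with 37 windows in all. They were searched on both strands for CAGAC, the short Smad-binding box, for GGCGCC, a GC-rich element bound by BMP Smads, and for GTCTAGAC, the palindromic Smad-binding element, which does not hold the first motif. Of the 37 windows 21 held CAGAC (56.8%, against 49.6% of 32851 windows of all genes), 9 held GGCGCC (24.3%, against 11.9%) and 1 held GTCTAGAC (2.7%, against 0.213%). Several windows of a gene can overlap, and a match is a description of the letters and not a binding site. Tgfbr1 is shown because this receptor gave the largest rise of any receptor in osteoblasts. Of its 2 windows, the first is printed, which holds GGCGCC. The other window holds no GGCGCC but has CAGAC, with its first base at -203. The printed window lies at chr4:47352972-47353271 on the plus strand, and the capitals mark GGCGCC, whose first base is at -233 relative to the start.
Tgfbr1: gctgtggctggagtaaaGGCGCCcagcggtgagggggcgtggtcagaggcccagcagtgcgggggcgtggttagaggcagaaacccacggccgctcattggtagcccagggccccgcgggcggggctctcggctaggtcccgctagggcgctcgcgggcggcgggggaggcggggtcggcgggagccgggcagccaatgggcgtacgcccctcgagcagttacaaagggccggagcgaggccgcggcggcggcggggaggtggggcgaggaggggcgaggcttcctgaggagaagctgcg

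Bmpr1b, a type I BMP receptor of skeletal precursors and cartilage, was at 6.88, 7.42 and 6.51 in osteosarcoma lines 1, 2 and 3, at 5.46, 5.42 and 5.40 in osteoblasts and at 5.08, 5.24 and 5.44 in pre-osteoblasts. All lines lay above all Kusa4b10 cultures. It was above the pre-osteoblast level in osteosarcoma (1.68 ± 0.20, adjusted p = 7.82e-04) and above the osteoblast level (1.51 ± 0.20, adjusted p = 0.00103). The Kusa4b10 levels were below the lower quartile of all genes (6.44), so these are differences from a dim probe set and at best lower bounds. The related type I receptor Bmpr1a was not called in any comparison, at a difference of 0.12 ± 0.06 between osteosarcoma and pre-osteoblasts (adjusted p = 0.159). With the arrays centred on their medians Bmpr1a passed against pre-osteoblasts (0.0337) and against osteoblasts (0.0358).

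Acvr2a, a type II receptor for activins and BMPs, was at 10.28, 8.81 and 10.21 in osteosarcoma lines 1, 2 and 3, at 9.43, 8.98 and 9.51 in osteoblasts and at 8.70, 8.54 and 8.50 in pre-osteoblasts. Lines 1 and 3 were above every Kusa4b10 culture, and line 2 was below every osteoblast culture. The difference between osteosarcoma and pre-osteoblasts was 1.19 ± 0.36 (adjusted p = 0.0457). This call was lost when the third group was left out of the fit (0.104) and without any 1 of the other arrays than line 2 (adjusted p 0.0578 to 0.135). Between osteoblasts and pre-osteoblasts Acvr2a was at 0.73 ± 0.36 (adjusted p = 0.191) and passed without line 2 (0.00606) and when osteosarcoma was left out of the fit (0.0114). Between osteosarcoma and osteoblasts it was at 0.46 ± 0.36 without a call (adjusted p = 0.413). That difference was 0.94 without line 2 (adjusted p = 0.00368), and 0.20, 0.24 and 0.30 without line 1, line 3 or osteoblast culture 2 (adjusted p = 0.780, 0.699 and 0.687). Bmpr2, the BMP type II receptor, was higher in osteoblasts and in osteosarcoma than in the pre-osteoblast cultures, by 0.36 ± 0.06 (adjusted p = 0.00199) and 0.38 ± 0.06 (adjusted p = 0.00193).

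Tgfbr3, the co-receptor betaglycan, was at 12.01, 10.76 and 12.19 in osteosarcoma lines 1, 2 and 3, at 11.45, 11.08 and 10.96 in osteoblasts and at 12.02, 11.80 and 11.91 in pre-osteoblasts. Every osteoblast culture was below every pre-osteoblast culture, and line 2 was the lowest array of all. The difference of -0.74 ± 0.34 between osteoblasts and pre-osteoblasts did not pass (adjusted p = 0.154), and it passed without line 2 (0.00472), when osteosarcoma was left out of the fit (0.00799) and under 1 array weight per group (0.0470). Tgfbr3 in osteosarcoma against osteoblasts was at 0.49 ± 0.34 without a call (adjusted p = 0.347). That difference was 0.93 without line 2 (adjusted p = 0.00315), 0.31 without line 1 (0.643) and 0.22 without line 3 (0.677). Without line 2 the counts of receptors higher and lower were 4 and 1 between osteoblasts and pre-osteoblasts and 4 and 1 between osteosarcoma and osteoblasts. Without line 3 they were 2 and 2 between osteosarcoma and osteoblasts, where Acvr2b passed as lower (-0.24, adjusted p = 0.0379). Acvr1, Acvrl1 and Acvr2b gave no call.

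The receptor-regulated and common Smads had 0 called differences of at least 1 log2. Of these 6 genes, 1 rose and 1 fell in osteoblasts against pre-osteoblasts, 2 rose and 0 fell in osteosarcoma against pre-osteoblasts, and 3 rose and 0 fell in osteosarcoma against osteoblasts. These are 33.3%, 33.3% and 50% of the list, against the 26.1%, 23.5% and 27.4% of all genes given above. Smad9, a BMP-regulated Smad that is itself a BMP target gene, was at 8.88, 8.88 and 9.06 in osteosarcoma lines 1, 2 and 3, at 8.15, 8.32 and 7.90 in osteoblasts and at 9.17, 9.27 and 8.92 in pre-osteoblasts. All osteoblast cultures lay below all other arrays, and the osteosarcoma lines overlapped with the pre-osteoblasts. Smad9 was lower in osteoblasts than in the pre-osteoblast cultures (-0.998 ± 0.126, adjusted p = 8.58e-04) and higher in osteosarcoma than in the osteoblast cultures (0.82 ± 0.13, adjusted p = 0.00198), and between osteosarcoma and pre-osteoblasts it was at -0.18 ± 0.13 (adjusted p = 0.370).

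Smad4, the common partner, was at 11.86, 11.78 and 11.85 in osteosarcoma, at 11.87, 11.78 and 11.79 in osteoblasts and at 11.48, 11.31 and 11.44 in pre-osteoblasts. Pre-osteoblasts were the low group. The difference from them was 0.43 ± 0.06 for osteosarcoma (adjusted p = 0.00183) and 0.41 ± 0.06 for osteoblasts (adjusted p = 0.00191). Smad5, which carries BMP signals as Smad1 does, was higher in osteosarcoma than in the pre-osteoblast cultures by 0.38 ± 0.06 (adjusted p = 0.00283) and than in the osteoblast cultures by 0.21 ± 0.06 (adjusted p = 0.0338). The second Smad5 call was lost without osteosarcoma line 1 or 3, without any 1 osteoblast culture and without pre-osteoblast culture 2 (adjusted p 0.0536 to 0.114), and in 4 of the other alternatives (0.0525 to 0.0965). Smad1 was higher in osteosarcoma than in the osteoblast cultures by 0.32 ± 0.08 (adjusted p = 0.0195), a call lost without osteoblast culture 1 (0.0516) or 3 (0.0721) and when the third group was left out of the fit (0.0528). Without osteoblast culture 1 or 3, 1 of the 6 was higher in osteosarcoma than in the osteoblast cultures, and without line 3 the counts were 3 higher and 1 lower. The TGF-beta Smads, Smad2 and Smad3, were not called. Smad2 was at 0.25 ± 0.08 between osteosarcoma and pre-osteoblasts (adjusted p = 0.0504) and passed in 6 alternatives, among them without line 3 (0.00834). Without line 3 Smad2 passed as higher (0.0209) and Smad3 as lower (0.0313) in osteosarcoma than in the osteoblast cultures.

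The intracellular inhibitors held genes that were low in osteoblasts (Smad6 and Smad7) and genes that were high there (Skil and Tgif1). Of these 6, 2 rose and 2 fell in osteoblasts against pre-osteoblasts, 2 rose and 0 fell in osteosarcoma against pre-osteoblasts, and 2 rose and 2 fell in osteosarcoma against osteoblasts. These are 66.7%, 33.3% and 66.7% of the list, against the 26.1%, 23.5% and 27.4% of all genes given above. Smad6, which blocks BMP receptors and Smad1, was at 9.88, 9.54 and 10.13 in osteosarcoma lines 1, 2 and 3, at 8.943, 9.268 and 9.002 in osteoblasts and at 10.10, 9.96 and 9.78 in pre-osteoblasts. The osteoblast cultures were the lowest arrays and the other groups overlapped. Smad6 was lower in osteoblasts than in the pre-osteoblast cultures (-0.88 ± 0.16, adjusted p = 0.00443) and higher in osteosarcoma than in the osteoblast cultures (0.78 ± 0.16, adjusted p = 0.00725).

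Smad7, which blocks TGF-beta and BMP type I receptors, was at 9.24, 9.02 and 9.26 in osteosarcoma lines 1, 2 and 3, at 8.55, 8.54 and 8.70 in osteoblasts and at 8.99, 8.97 and 8.85 in pre-osteoblasts. It was lower in every osteoblast culture than in every other array. The difference was -0.34 ± 0.08 between osteoblasts and pre-osteoblasts (adjusted p = 0.0165) and 0.58 ± 0.08 between osteosarcoma and osteoblasts (adjusted p = 0.00140). The call against pre-osteoblasts was lost without osteoblast culture 1 (0.0621) or 2 (0.0535) and without pre-osteoblast culture 1 (0.0551) or 2 (0.0576). Between osteosarcoma and pre-osteoblasts Smad7 was at 0.24 ± 0.08 (adjusted p = 0.0777), and it passed without line 2 (0.0203) and with quantile normalization repeated (0.0409). Smad6, Smad7 and Smad9 were the members called lower in osteoblasts than in the pre-osteoblast cultures, and they were called higher in osteosarcoma than in the osteoblast cultures.

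The promoter windows of Smad9 and Smad6 are shown because these genes moved together, and the Smad6 window was the member window with GTCTAGAC. Smad9 lies at chr3:54755332-54755631 on the plus strand with GGCGCC in capitals, its first base at -51. Smad6 lies at chr9:64022010-64022309 on the minus strand with GTCTAGAC in capitals, its first base at -4. A window for Smad7 was not used here.
Smad9: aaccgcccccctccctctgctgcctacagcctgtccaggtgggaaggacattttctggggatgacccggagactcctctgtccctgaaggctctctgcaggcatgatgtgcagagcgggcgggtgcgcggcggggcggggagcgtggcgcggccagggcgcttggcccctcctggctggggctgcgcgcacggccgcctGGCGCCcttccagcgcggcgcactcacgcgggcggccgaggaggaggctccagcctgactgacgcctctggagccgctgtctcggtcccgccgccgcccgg
Smad6: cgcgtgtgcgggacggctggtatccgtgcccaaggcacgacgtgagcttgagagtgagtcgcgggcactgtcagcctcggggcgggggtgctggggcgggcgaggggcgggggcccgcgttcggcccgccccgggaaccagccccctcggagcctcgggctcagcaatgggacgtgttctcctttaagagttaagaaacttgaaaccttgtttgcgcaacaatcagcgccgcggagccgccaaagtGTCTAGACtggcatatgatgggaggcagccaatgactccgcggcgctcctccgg

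Skil, which encodes the Smad co-repressor SnoN and is induced by TGF-beta, was at 8.79, 8.86 and 9.13 in osteosarcoma lines 1, 2 and 3, at 9.19, 8.85 and 9.39 in osteoblasts and at 7.58, 7.94 and 7.45 in pre-osteoblasts. Osteosarcoma and osteoblasts overlapped, and both were above all pre-osteoblasts. Skil was 2.81-fold above the pre-osteoblast level in osteoblasts (1.49 ± 0.17, adjusted p = 5.61e-04) and 2.41-fold above the pre-osteoblast level in osteosarcoma (1.27 ± 0.17, adjusted p = 0.00140). Between osteosarcoma and osteoblasts it was at -0.22 ± 0.17 (95% interval -0.61 to 0.18, adjusted p = 0.416). The co-repressor gene Tgif1 was higher in osteoblasts than in the pre-osteoblast cultures by 0.56 ± 0.15 (adjusted p = 0.0255). In osteosarcoma it was below the osteoblast level (-0.79 ± 0.15, adjusted p = 0.00514). The first Tgif1 call was lost without osteoblast culture 1 (0.0907) or 3 (0.0913) and without pre-osteoblast culture 2 (0.0686) or 3 (0.0884).

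Of the ubiquitin ligases that mark Smads and receptors for degradation, Smurf1 was lower in osteosarcoma than in the osteoblast cultures (-0.52 ± 0.14, adjusted p = 0.0218). The call was lost without line 2 (0.0534) or 3 (0.0610), without osteoblast culture 1 (0.0728) or 3 (0.0786) and when the third group was left out of the fit (0.0646). Smurf2 was higher in osteosarcoma than in the pre-osteoblast cultures (0.34 ± 0.08, adjusted p = 0.0175). That call was lost without line 1 (0.0557), without pre-osteoblast culture 2 (0.0583) or 3 (0.0653), with its probe sets averaged (0.0576) and when the third group was left out of the fit (0.0559). Without osteoblast culture 2, Smurf1 passed as higher in osteoblasts than in the pre-osteoblast cultures (0.45, adjusted p = 0.0122), and without pre-osteoblast culture 1 so did Smurf2 (0.25, adjusted p = 0.0315). Between osteoblasts and pre-osteoblasts the number of inhibitors that rose was 1 without osteoblast culture 1 or 3 or pre-osteoblast culture 2 or 3, and the number that fell was 1 without osteoblast culture 1 or 2 or pre-osteoblast culture 1 or 2. In osteosarcoma against pre-osteoblasts 1 rose without line 1 or pre-osteoblast culture 2 or 3, and against osteoblasts 1 fell without line 2 or 3 or osteoblast culture 1 or 3.

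Of the 6 antagonists, 3 rose in osteoblasts against pre-osteoblasts (Chrd, Chrdl1 and Bambi) and 2 rose in osteosarcoma against pre-osteoblasts (Chrdl1 and Bambi), while 2 fell in osteosarcoma against osteoblasts (Chrd and Grem1). These are 50%, 33.3% and 33.3% of the list, against the 26.1%, 23.5% and 27.4% of all genes given above. Chrdl1, a secreted chordin-like protein that binds BMPs, was at 8.41, 7.41 and 8.87 in osteosarcoma lines 1, 2 and 3, at 9.82, 9.04 and 9.12 in osteoblasts and at 6.59, 6.58 and 6.38 in pre-osteoblasts. The groups did not overlap, and osteoblasts were the highest. Chrdl1 was 7.02-fold above the pre-osteoblast level in osteoblasts (2.81 ± 0.35, adjusted p = 8.54e-04) and 3.29-fold above the pre-osteoblast level in osteosarcoma (1.72 ± 0.35, adjusted p = 0.00950). Both folds are over pre-osteoblast levels near the lower quartile of all genes and may be too small. Between osteosarcoma and osteoblasts the difference of -1.10 ± 0.35 missed the threshold (adjusted p = 0.0520). Its difference was -0.69 without line 2 (adjusted p = 0.0776). It passed without line 3 (-1.41, adjusted p = 0.0164), with either filter on dim genes (0.0294 and 0.0409), with 1 array weight per group (0.0486) and with a mean-variance trend and robust prior (0.0476).

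Grem1, the BMP antagonist gremlin, was at 11.80, 11.08 and 10.29 in osteosarcoma lines 1, 2 and 3, at 12.11, 12.06 and 12.45 in osteoblasts and at 11.44, 11.39 and 11.57 in pre-osteoblasts. The lines spread over more than 1 log2 and all lay below the osteoblasts, and line 1 was above the pre-osteoblasts while lines 2 and 3 were below them. Grem1 was 2.22-fold lower in osteosarcoma than in the osteoblast cultures (-1.15 ± 0.32, adjusted p = 0.0292). This call was lost without line 2 (0.0572), without osteoblast culture 1, 2 or 3 (0.0712, 0.0572 and 0.101) and when the third group was left out of the fit (0.0839). Between osteoblasts and pre-osteoblasts Grem1 was at 0.74 ± 0.32 without a call (adjusted p = 0.138), although the cultures did not overlap. It passed there without line 1 (0.0341) or 3 (0.0233), when osteosarcoma was left out of the fit (0.00417) and under 1 array weight per group (0.0375).

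Chrd, which encodes chordin, was at 7.60, 7.41 and 7.41 in osteosarcoma, at 7.89, 8.39 and 7.89 in osteoblasts and at 7.59, 7.43 and 7.49 in pre-osteoblasts. Only the osteoblast cultures stood out, all of them above every other array. The difference was 0.55 ± 0.13 between osteoblasts and pre-osteoblasts (adjusted p = 0.0173) and -0.58 ± 0.13 between osteosarcoma and osteoblasts (adjusted p = 0.0127). The first was lost without pre-osteoblast culture 2 (0.0620) or 3 (0.0558). Bambi, a membrane decoy for type I receptors that lacks the kinase domain, was at 9.02, 9.23 and 9.12 in osteosarcoma, at 8.90, 9.42 and 8.69 in osteoblasts and at 8.21, 8.09 and 8.10 in pre-osteoblasts. It was higher in osteosarcoma than in the pre-osteoblast cultures by 0.99 ± 0.17 (adjusted p = 0.00368) and in osteoblasts by 0.87 ± 0.17 (adjusted p = 0.00578). Without osteoblast culture 2 it also passed between osteosarcoma and osteoblasts (0.33, adjusted p = 0.0391).

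Nog, the BMP antagonist noggin, and Fst, which encodes the activin-binding protein follistatin, were called in no comparison. Nog differed by no more than 0.08 between groups. Fst was at 10.12, 9.69 and 9.10 in osteosarcoma, at 10.21, 10.67 and 9.61 in osteoblasts and at 10.67, 10.23 and 10.14 in pre-osteoblasts. Its osteosarcoma lines lay below the pre-osteoblasts, at -0.71 ± 0.32 (adjusted p = 0.160), and at -0.45 without line 3 (adjusted p = 0.370). In osteosarcoma against osteoblasts, 1 antagonist fell without line 2 or any 1 osteoblast culture, and without osteoblast culture 2, 1 also rose.

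The matrix group was led by the latent TGF-beta binding proteins. Ltbp1, which tethers latent TGF-beta in the matrix, was higher in osteosarcoma than in both other groups, and Ltbp2, which does not bind latent TGF-beta but assembles on the same fibrillin microfibrils, was higher in osteosarcoma than in the pre-osteoblast cultures. Of the 4 genes, 0 were called in osteoblasts against pre-osteoblasts, 2 rose in osteosarcoma against pre-osteoblasts and 1 rose against osteoblasts, against the 26.1%, 23.5% and 27.4% of all genes given above. Ltbp1 was at 11.80, 12.14 and 11.79 in osteosarcoma lines 1, 2 and 3, at 10.76, 11.09 and 10.61 in osteoblasts and at 10.66, 11.16 and 10.98 in pre-osteoblasts. All lines were above all Kusa4b10 cultures. Ltbp1 was 1.97-fold above the pre-osteoblast level in osteosarcoma (0.98 ± 0.17, adjusted p = 0.00423) and 2.13-fold higher than in the osteoblast cultures (1.09 ± 0.17, adjusted p = 0.00204).

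Ltbp2 was at 10.47, 8.99 and 11.82 in osteosarcoma lines 1, 2 and 3, at 9.17, 9.21 and 8.88 in osteoblasts and at 7.64, 7.28 and 7.67 in pre-osteoblasts. Line 2 lay within the osteoblast range and lines 1 and 3 above it, and all pre-osteoblast cultures were lower than all other arrays. Ltbp2 was 7.43-fold above the pre-osteoblast level in osteosarcoma (2.89 ± 0.58, adjusted p = 0.00865). Between osteoblasts and pre-osteoblasts its difference of 1.55 ± 0.58 was not called (adjusted p = 0.0903). It passed there without line 2 (0.00820) or 3 (0.0133), when osteosarcoma was left out of the fit (5.90e-04) and under 1 array weight per group (0.0183), so that 1 matrix gene then rose. Between osteosarcoma and osteoblasts it was at 1.34 ± 0.58 (adjusted p = 0.134) and passed without line 2 (2.06, adjusted p = 0.00436), which made 2 matrix genes higher, while without line 3 it was 0.64 (adjusted p = 0.266). Ltbp3 and Bmp1, a metalloproteinase that cleaves procollagen and chordin, gave no call.

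The Ltbp2 promoter window is shown because this gene had the largest difference of any member between osteosarcoma and pre-osteoblasts. It lies at chr12:84876442-84876741 on the minus strand, and capitals mark 3 matches of CAGAC on either strand, with first bases at -205, -176 and 28.
Ltbp2: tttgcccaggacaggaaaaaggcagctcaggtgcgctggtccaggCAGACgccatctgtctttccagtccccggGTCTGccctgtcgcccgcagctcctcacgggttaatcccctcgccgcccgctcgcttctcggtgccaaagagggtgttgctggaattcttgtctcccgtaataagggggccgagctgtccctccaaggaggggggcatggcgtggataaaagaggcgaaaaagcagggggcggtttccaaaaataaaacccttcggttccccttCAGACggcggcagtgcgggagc

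**Figure D3:**
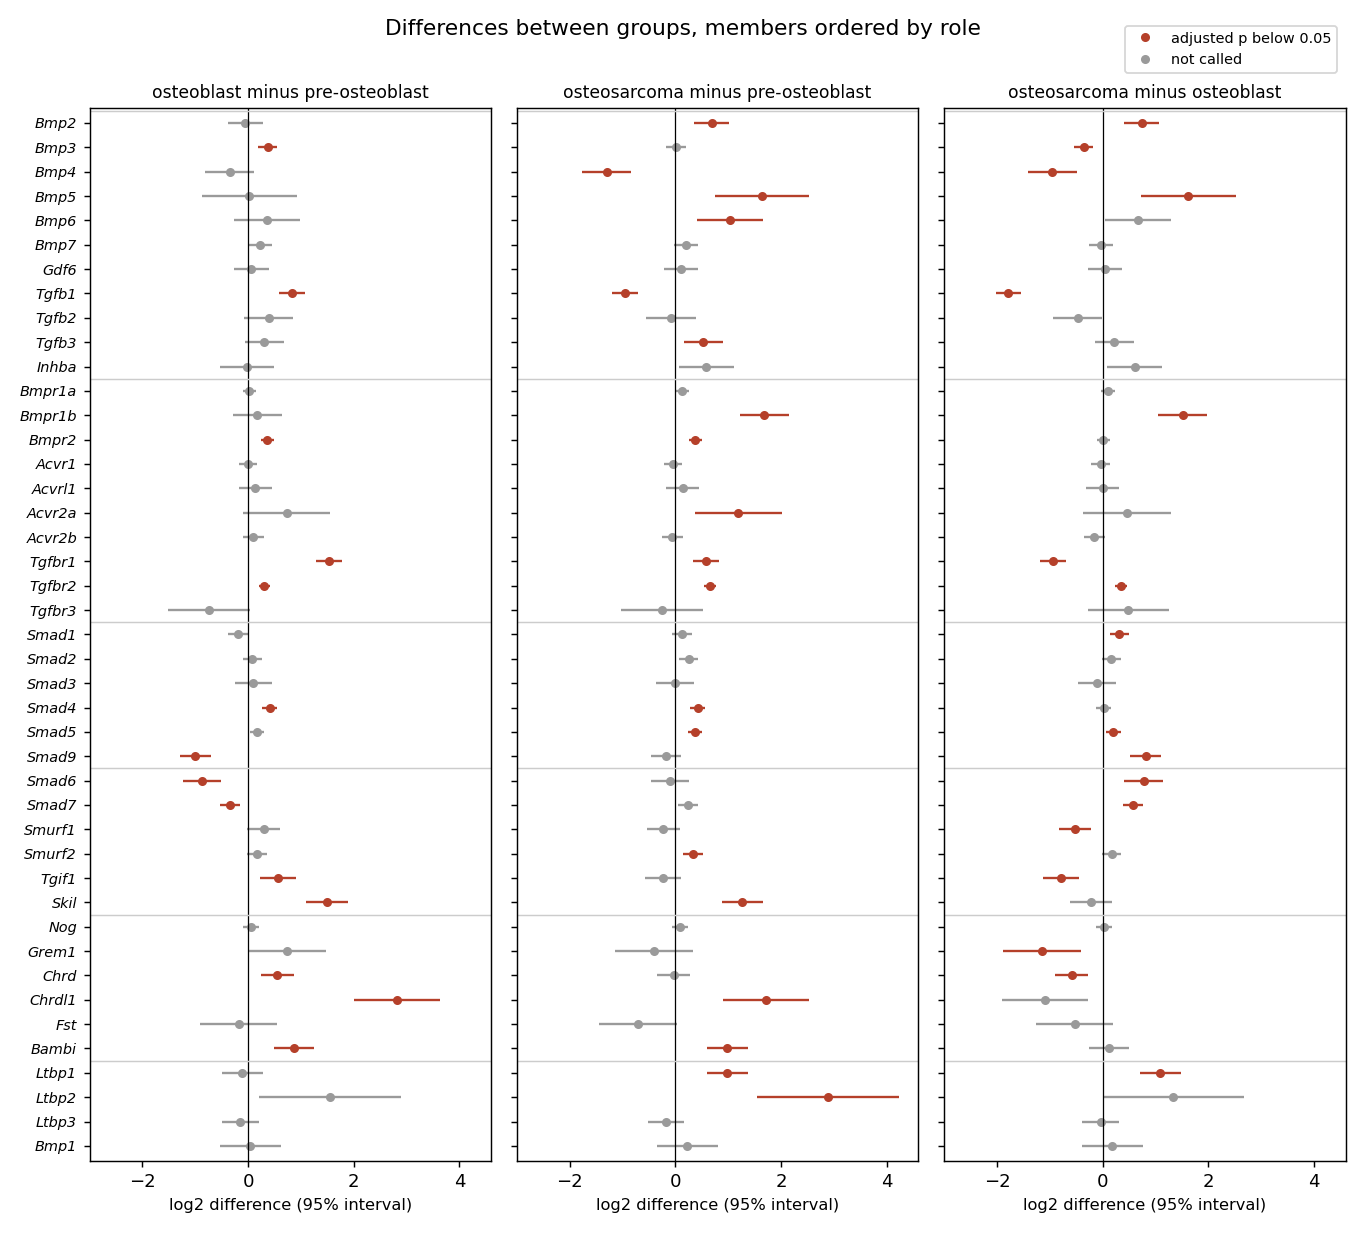
Log2 difference (point) with its 95% interval (bar) for the 43 members, ordered by role, in the 3 comparisons, with called members in red and the others in grey. Chrdl1 at 2.81 leads between osteoblasts and pre-osteoblasts, Ltbp2 at 2.89 between osteosarcoma and pre-osteoblasts, and Tgfb1 at -1.78 is the farthest member between osteosarcoma and osteoblasts.

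The osteosarcoma lines differed among themselves more in these genes than in the median gene, and so did the osteoblast cultures. The genes compared were not matched for level. The median SD over the 3 arrays was 0.197 for the members and 0.118 for all genes in osteosarcoma, 0.157 and 0.0823 in osteoblasts, and 0.0924 and 0.0872 in pre-osteoblasts. Of the 43 members, 8 had an SD between lines above the 95th percentile of all genes (0.520), 4 did so in osteoblasts (0.298) and 0 in pre-osteoblasts (0.292). The 8 were Ltbp2 (SD 1.42), Bmp5 (0.96), Acvr2a (0.83), Tgfbr3 (0.78), Grem1 (0.75), Chrdl1 (0.75), Bmp6 (0.66) and Bmp1 (0.55). Line 2 was the lowest line for Ltbp2, Acvr2a, Tgfbr3, Chrdl1, Bmp6 and Bmp1 and the highest for Bmp5. Grem1 instead was lowest in line 3. With 1 array per line, the spread within a line was not measured. The 4 in osteoblasts were Fst, Inhba, Chrdl1 and Bambi, and culture 2 was the highest osteoblast array for Fst, Inhba and Bambi, while Chrdl1 was highest in culture 1.

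**Figure D4:**
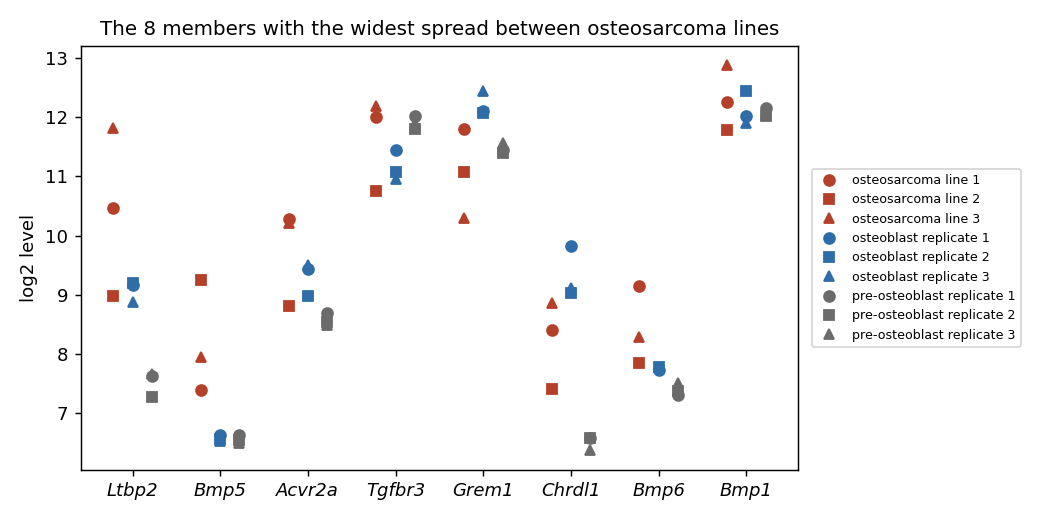
Log2 level in each of the 9 arrays for the 8 members with the widest SD between the osteosarcoma lines, with groups by colour and the line or replicate by symbol. The osteosarcoma lines span 2.83 for Ltbp2 and 1.87 for Bmp5, and line 2 (red square) is the lowest line in all but Bmp5 and Grem1.

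A further list held 55 measured pathway genes and was chosen with earlier results of these data known. Of these genes, 9 rose and 6 fell in osteoblasts against pre-osteoblasts. In osteosarcoma 9 rose and 4 fell against pre-osteoblasts, and 7 rose and 7 fell against osteoblasts. In percent these are 27.3%, 23.6% and 25.5% of the list, near the 26.1%, 23.5% and 27.4% of all genes. Eng, the TGF-beta co-receptor endoglin, had the largest difference, at 10.63, 10.45 and 10.72 in osteosarcoma lines 1, 2 and 3, at 7.55, 7.76 and 7.48 in osteoblasts and at 7.81, 7.70 and 7.78 in pre-osteoblasts. Every line lay above every Kusa4b10 culture. Eng was higher in osteosarcoma by 3.00 ± 0.09 against osteoblasts (adjusted p = 2.56e-06) and by 2.84 ± 0.09 against pre-osteoblasts (adjusted p = 3.80e-06). Eng is also an endothelial gene, and of the 4 endothelial markers, Pecam1, Cdh5 and Kdr reached at most 6.66 in any array, while Tek was at 9.02, 6.28 and 7.15 in lines 1, 2 and 3 against 6.06 to 6.30 in the Kusa4b10 cultures. Tll1, a protease of the Bmp1 family that cleaves chordin, was higher in osteosarcoma too, by 1.80 ± 0.36 against osteoblasts (adjusted p = 0.00678) and 1.96 ± 0.36 against pre-osteoblasts (adjusted p = 0.00572). It was at 8.47, 8.64 and 7.04 in lines 1, 2 and 3, with line 3 far below the others. The Kusa4b10 levels, 6.07 to 6.40, were below the lower quartile of all genes (6.44), so these differences may be too small.

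Bmp8a, a further BMP ligand, was at 7.42, 7.32 and 7.40 in osteosarcoma, at 9.16, 9.32 and 9.18 in osteoblasts and at 7.34, 7.30 and 7.26 in pre-osteoblasts, and so was high in osteoblasts alone. It rose by 1.92 ± 0.06 against pre-osteoblasts (adjusted p = 2.37e-06) and was lower in osteosarcoma than in the osteoblast cultures (-1.84 ± 0.06, adjusted p = 3.03e-06). Ltbp4, another latent TGF-beta binding protein, went the other way from Ltbp1: it was lower in osteosarcoma by -1.73 ± 0.08 against osteoblasts (adjusted p = 1.51e-05) and by -1.16 ± 0.08 against pre-osteoblasts (adjusted p = 9.77e-05). Inhbb, the activin B subunit gene, was lower than in the pre-osteoblast cultures both in osteosarcoma (-1.27 ± 0.20, adjusted p = 0.00263) and in osteoblasts (-1.29 ± 0.20, adjusted p = 0.00210). Fstl3, an activin inhibitor, was lower in osteosarcoma than in the pre-osteoblast cultures (-1.38 ± 0.10, adjusted p = 1.12e-04). Fstl1 fell in osteoblasts against pre-osteoblasts (-1.09 ± 0.20, adjusted p = 0.00477) and was higher in osteosarcoma than in the osteoblast cultures (1.23 ± 0.20, adjusted p = 0.00250). Without line 2, 7 of the listed genes in place of 4 were lower in osteosarcoma than in the pre-osteoblast cultures.

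Target genes of the pathway were listed separately, and 28 were measured. In osteoblasts against pre-osteoblasts 7 rose and 12 fell, in osteosarcoma against pre-osteoblasts 7 rose and 0 fell, and in osteosarcoma against osteoblasts 10 rose and 4 fell. In percent 67.9%, 25% and 50% of the list were called, where 26.1%, 23.5% and 27.4% of all genes were, so the share in osteosarcoma against pre-osteoblasts was near the background. The list's median differences in these comparisons were -0.29, -0.04 and 0.49. Without osteoblast culture 2 the counts were 5 and 13, 10 and 1, and 12 and 5. Leaving out each array in turn gave 5 to 7 higher and 8 to 13 lower in osteoblasts against pre-osteoblasts. The 12 falls there became 8 without osteoblast culture 1 or 3 or pre-osteoblast culture 1 or 2. In osteosarcoma it gave 4 to 10 higher and 0 to 2 lower against pre-osteoblasts, and 8 to 12 higher and 3 to 5 lower against osteoblasts. The adipocyte and dividing-cell markers given above move with the same comparisons, and their part here was not tested. Id2, a BMP target that inhibits differentiation factors, was at 12.47, 11.94 and 11.87 in osteosarcoma lines 1, 2 and 3, at 9.09, 9.35 and 8.95 in osteoblasts and at 11.10, 11.03 and 10.87 in pre-osteoblasts. The groups did not overlap. Id2 fell in osteoblasts against pre-osteoblasts by 1.87 ± 0.17 (adjusted p = 1.80e-04) and was higher in osteosarcoma than in the osteoblast cultures by 2.97 ± 0.17 (adjusted p = 3.06e-05). Further BMP targets, picked after their values were seen, were Id3 and Atoh8. They were lower in osteoblasts than in the pre-osteoblast cultures (-1.07 ± 0.20, adjusted p = 0.00535, and -1.49 ± 0.22, adjusted p = 0.00163) and higher in osteosarcoma than in the osteoblast cultures (1.65 ± 0.20, adjusted p = 6.84e-04, and 1.88 ± 0.22, adjusted p = 5.27e-04). Id1, picked in the same way, was at -0.73 ± 0.21 between osteoblasts and pre-osteoblasts (adjusted p = 0.0369), a call lost without any 1 osteoblast culture and without pre-osteoblast culture 1 or 2 (adjusted p 0.0826 to 0.123). Between osteosarcoma and osteoblasts it was at 0.69 ± 0.21 (adjusted p = 0.0451), lost without line 1 (0.43, adjusted p = 0.0584) and without any 1 Kusa4b10 culture (adjusted p 0.0538 to 0.132). Id4, of the same family and also picked after its values were seen, was at 8.15, 7.41 and 7.79 in osteosarcoma, at 7.35, 7.36 and 7.41 in osteoblasts and at 7.23, 7.03 and 7.28 in pre-osteoblasts. Unlike Id1, Id2 and Id3, it lay above every pre-osteoblast culture in every osteoblast culture, by 0.19 ± 0.16 without a call (adjusted p = 0.473). Its rise in osteosarcoma against pre-osteoblasts (0.60 ± 0.16, adjusted p = 0.0307) was lost without any 1 array other than line 2 or osteoblast culture 2 (adjusted p 0.0514 to 0.100). Hey1, a repressor induced by BMP and Notch, ran opposite to Id2 in both of these comparisons. It rose by 1.80 ± 0.14 in osteoblasts against pre-osteoblasts (adjusted p = 7.94e-05) and was lower in osteosarcoma than in the osteoblast cultures (-2.09 ± 0.14, adjusted p = 5.04e-05).

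**Figure D5:**
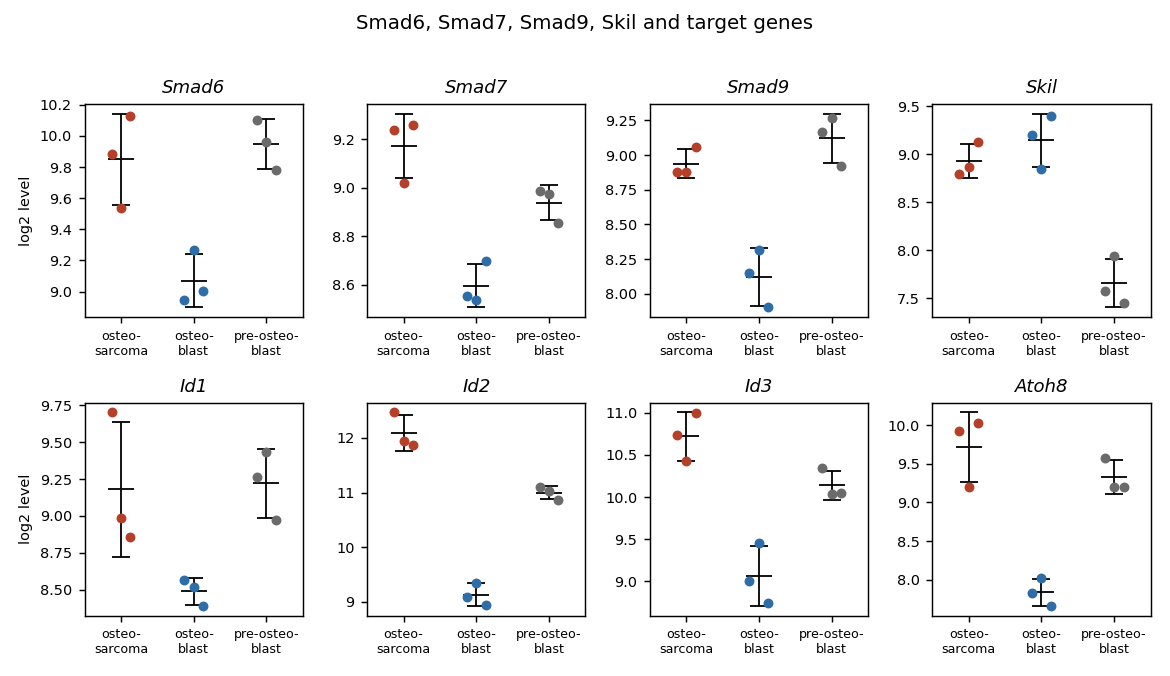
Log2 level of the inhibitory and BMP-regulated Smads Smad6, Smad7 and Smad9, of Skil and of the listed target genes Id1, Id2, Id3 and Atoh8, with 1 point per array, the mean as a wide tick and the SD (n = 3) as the bar, and a separate axis for each gene. The osteoblast cultures are the lowest arrays for all of these genes but Skil, where the pre-osteoblasts are lowest. Id1, Id3 and Atoh8 were picked after their values were seen, so the shared pattern follows in part from the choice. Of the 28 listed targets, 14 lay lower in every osteoblast culture than in every pre-osteoblast culture. Another 8 lay higher, among them Hey1, Bhlhe40 and Id4, which are not drawn.

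The targets best known from TGF-beta differed in direction among themselves. Ccn2, the connective tissue growth factor gene, was at 12.04, 11.46 and 12.21 in osteosarcoma lines 1, 2 and 3, at 11.84, 11.65 and 11.32 in osteoblasts and at 9.05, 9.31 and 8.85 in pre-osteoblasts. Osteosarcoma and osteoblasts overlapped, far above pre-osteoblasts, with differences from these of 2.83 ± 0.22 (adjusted p = 1.19e-04) and 2.53 ± 0.22 (adjusted p = 1.35e-04). Tgfbi, a matrix protein named for its induction by TGF-beta, was at 11.59, 11.28 and 13.53 in osteosarcoma, at 8.92, 9.42 and 8.80 in osteoblasts and at 12.424, 12.003 and 12.104 in pre-osteoblasts. It was low in osteoblasts alone, by -3.13 ± 0.52 against pre-osteoblasts (adjusted p = 0.00297), and 3.09 ± 0.52 higher in osteosarcoma than in the osteoblast cultures (adjusted p = 0.00300). Cnn1, a smooth muscle calponin, was at 11.85, 11.26 and 12.98 in osteosarcoma, at 7.12, 7.36 and 7.17 in osteoblasts and at 8.96, 8.69 and 8.48 in pre-osteoblasts. It was higher in osteosarcoma by 4.82 ± 0.37 against osteoblasts (adjusted p = 1.02e-04) and 3.32 ± 0.37 against pre-osteoblasts (adjusted p = 5.95e-04).

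Cnn1 is also 1 of 5 listed myofibroblast and smooth muscle markers, whose summed level ran from 50.6 to 52.6 in osteosarcoma, from 42.97 to 45.56 in osteoblasts and from 47.3 to 47.9 in pre-osteoblasts, and their part in this result was not tested. The fall of Cnn1 in osteoblasts against pre-osteoblasts (-1.50 ± 0.37, adjusted p = 0.0190) was lost without osteoblast culture 1 (0.0652) or 3 (0.0623) and without pre-osteoblast culture 1 (0.0652) or 2 (0.0558). Postn, the matrix protein periostin, was higher in osteosarcoma than in the pre-osteoblast cultures (2.26 ± 0.37, adjusted p = 0.00330). Its rise in osteoblasts against pre-osteoblasts (1.35 ± 0.37, adjusted p = 0.0278) was lost without osteoblast culture 2 (0.0758) and without pre-osteoblast culture 2 (0.0961) or 3 (0.0800). The 7 targets that rose in osteosarcoma against pre-osteoblasts were 4 without line 1 or 3 or pre-osteoblast culture 2 or 3. The count of 0 that fell there became 1 without line 1 or osteoblast culture 2 or 3, and 2 without line 2 or 3.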

How the data were processed

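Total RNA of 9 samples was labelled with biotin and read on 1 expression array each. The deposited values are log2 levels, 1 for each probe set. The authors used RMA, which corrects background, normalizes between arrays and sums up probes, per the submitters' processing notes, which also name mm9. Its version and any filter: not given in the sources used here. Normalization makes each level relative to the array. Array medians ran from 7.43 to 7.56. Of 35556 probe sets, 21789 had 1 symbol in the platform annotation, 1621 several and 12146 none. Those with 1 symbol gave 19938 genes, 999 of them with several probe sets, of which the one with the highest mean was used. Within a group at most 4.33% of values were equal between arrays.

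Group means (3) were estimated over the 9 arrays by limma 3.58.1 under R 4.3.3 (lmFit, eBayes, 6 residual and 2.19 prior degrees of freedom, two-sided, Benjamini-Hochberg over all genes). The fit was also run on simulated data with 1 spread per gene for all groups. That run did not cover the wider spread between the osteosarcoma lines. The members, lists and tests were chosen with earlier results of these data known. Members called with at least 1 log2 between groups that do not overlap are given in every array, and from the other lists at most the 3 largest rises and falls per comparison, unless said otherwise. Some listed genes were not analysed here. Alternatives were filters on dim genes, averaging a gene's probe sets, repeated quantile normalization, median centring, leaving out the group not compared, array weights, a trended robust prior, each array left out and a replicate block. Same-numbered Kusa4b10 cultures did not all deviate together (r = 0.152, 0.176 and 0.0278 for numbers 1, 2 and 3), so the numbers were not taken as pairs. RefSeq promoters on GRCm38.p6 were matched by symbol.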

Additional observations from a re-analysis of the deposited data

How the results depend on the processing

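No member changed direction with a call under any alternative run. Some of the members called were called in every alternative in which they were tested. They were 11 of 14 between osteoblasts and pre-osteoblasts and 14 of 19 between osteosarcoma and pre-osteoblasts. Between osteosarcoma and osteoblasts they were 13 of 18. Bmp2, Bmp3, Bmpr1b and Chrd are among these, and at least 1 filter on dim genes left each of them untested. The cause of the other changes was not tested. Asking for at least 1 log2 as well left 3, 8 and 5 members in these comparisons, by construction. When the third group was left out of the fit, 5 members in place of 3 were lower in osteoblasts than in the pre-osteoblast cultures. Leaving out each array in turn gave 11 to 17 members called between osteoblasts and pre-osteoblasts (9 to 13 higher, 2 to 4 lower), 14 to 19 between osteosarcoma and pre-osteoblasts (12 to 17 higher, 2 lower) and 13 to 20 between osteosarcoma and osteoblasts (7 to 14 higher, 6 to 10 lower). The genes called in all were 3804 to 5881, 3364 to 4686 and 4058 to 5618, and the F test called 21 to 26 members. Where 1 array of a group was left out, the fit shared the spread of the other groups. A fit of the Kusa4b10 cultures alone called 20 members (16 higher, 4 lower) and 5883 genes with the replicate number as a block, and 20 members (15 higher, 5 lower) and 6316 genes without it. Same-numbered cultures correlated best with each other for numbers 1 and 2 (r = 0.152 and 0.176). Osteoblast culture 3 had r = 0.0766 with pre-osteoblast culture 1 and 0.0278 with pre-osteoblast culture 3. Dim probe sets compress differences, which bears on Bmp2, Bmp3 and Bmpr1b in all groups, on Bmp5 and Tll1 in the Kusa4b10 cultures and on Chrdl1 in pre-osteoblasts.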
